A study of Mus musculus with 16 samples.

Results

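The genes described are 40 genes of DNA replication and of deoxynucleotide supply, chosen by name from the 23100 genes of the count table. They comprise the MCM, GINS, polymerase, clamp, clamp loader and single-strand binding subunits, the enzymes of lagging strand joining and deoxynucleotide synthesis, and the chromatin assembly factor. All 40 had a row in the table, and all 40 passed the filter on low counts in both fits used below. The study profiled RNA of fibroblasts grown in culture from C57BL/6 mouse embryos at E13.5, a cell type of connective tissue. The lines were wildtype (Zac+/+) or Zac1 mutant (Zac+/-), with 2 lines per genotype, numbered 1 and 2 after the replicate numbers of the labels, and were kept in DMEM with 10% FBS. Zac1, now called Plagl1, encodes a zinc finger transcription factor, and the sources used here do not say which part of it the mutant allele lacks. Each line was harvested at day 2 in vitro, which the labels call proliferative, and at days 8, 10 and 12, called quiescent, giving 16 libraries in 8 groups of genotype and day. The sample titles code the mutant lines as KOpat, and give the letter I to line 1 and the letter L to line 2 of each genotype. These codes were not expanded here, and the letters were not taken as pairs across genotypes. No other allele, drug or stimulus was named for any group.

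DNA replication starts when the origin recognition complex, with Cdc6 and Cdt1, loads rings of the MCM helicase onto DNA, a step that geminin (Gmnn) restrains outside G1 phase. Mcm10, Cdc45 and the GINS complex turn the loaded ring into an active helicase, RPA coats the unwound strand, and polymerase alpha with primase lays down primers that polymerases delta and epsilon extend. The clamp PCNA, opened by the clamp loader RFC, holds the polymerases on DNA, while Fen1 and Lig1 join the fragments of the lagging strand and CAF-1 places new histones behind the fork. Ribonucleotide reductase, thymidylate synthase and thymidine kinase supply the building blocks. Many of these genes are transcribed in late G1 and S phase under E2F factors, and fibroblasts that leave the cell cycle are known for low levels of them.

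Library depth was 28079241 to 61039793 counts. Levels are CPM, counts scaled to a common library total and adjusted by TMM for library composition. All 10 fibroblast markers examined, among them Col1a1, Pdgfra and Vim, were present, with summed levels of 12452 to 14035 CPM at day 2 and 30659 to 43184 CPM at quiescence. The epithelial markers Epcam, Krt5 and Cldn4 and the endothelial markers Pecam1 and Cdh5 stayed under 1 CPM in every library, as did the muscle regulators Myod1 and Myog. The lists as a whole were not at 0. Epithelial markers (7 genes) summed to 11.03 to 16.05 at day 2 and 1.68 to 4.66 at quiescence, and endothelial markers (5 genes) to 14.7 to 19.7 and 2.96 to 7.58. Skeletal muscle markers (5 genes) summed to 149 to 299 CPM at day 2 and 46.3 to 96.2 at quiescence, and neural markers (5 genes), whose ranges overlap, to 34.8 to 39.4 and 13.5 to 37.03. Markers of macrophages and blood (10 genes) summed to 9.41 to 102 CPM at day 2 and 11.01 to 453 CPM at quiescence, with the highest values in mutant line 1. The part of these marker lists in the results below was not tested. Plagl1, the mutated gene, stood in lines 1 and 2 at 44.4 and 37.4 CPM in wildtype and 8.98 and 7.62 CPM in mutant cells at day 2. Over the summed quiescent days its levels were 201 and 165 CPM in wildtype and 47.8 and 50.9 CPM in mutant cells. The mean was 183 ± 25.6 CPM in quiescent wildtype and 49.3 ± 2.24 CPM in quiescent mutant cells (mean ± SD, n = 2 lines), in the direction the labels give.

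The comparison of states asked how the replication genes changed when the cultures went from proliferation to quiescence. For each line the counts of days 8, 10 and 12 were added up, because the same line was harvested on all of them. All 40 members fell, in wildtype and in mutant cells alike (edgeR's quasi-likelihood test, Benjamini-Hochberg adjusted p under 0.05 over 15740 genes). Of all genes tested, 47.6% were called in wildtype (23.7% lower) and 42.1% in mutant cells (21.0% lower and 21.1% higher). The median log2 change of the members was -1.79 in wildtype and -1.65 in mutant cells, beside 0.051 and 0.053 over all tested genes. In each member, every one of the 12 quiescent libraries lay below all 4 day 2 libraries, which held for 21.5% of all genes. The size of the fall differed widely between members, from -2.94 for Rrm2 to -0.61 for Rfc1 in wildtype (SD over the 40 members 0.54). In bulk RNA, fewer cycling cells and less of each transcript per cell cannot be told apart. A fall of these genes at quiescence was already known from earlier results on these libraries, so what follows describes how the members differ.

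**Figure D1:**
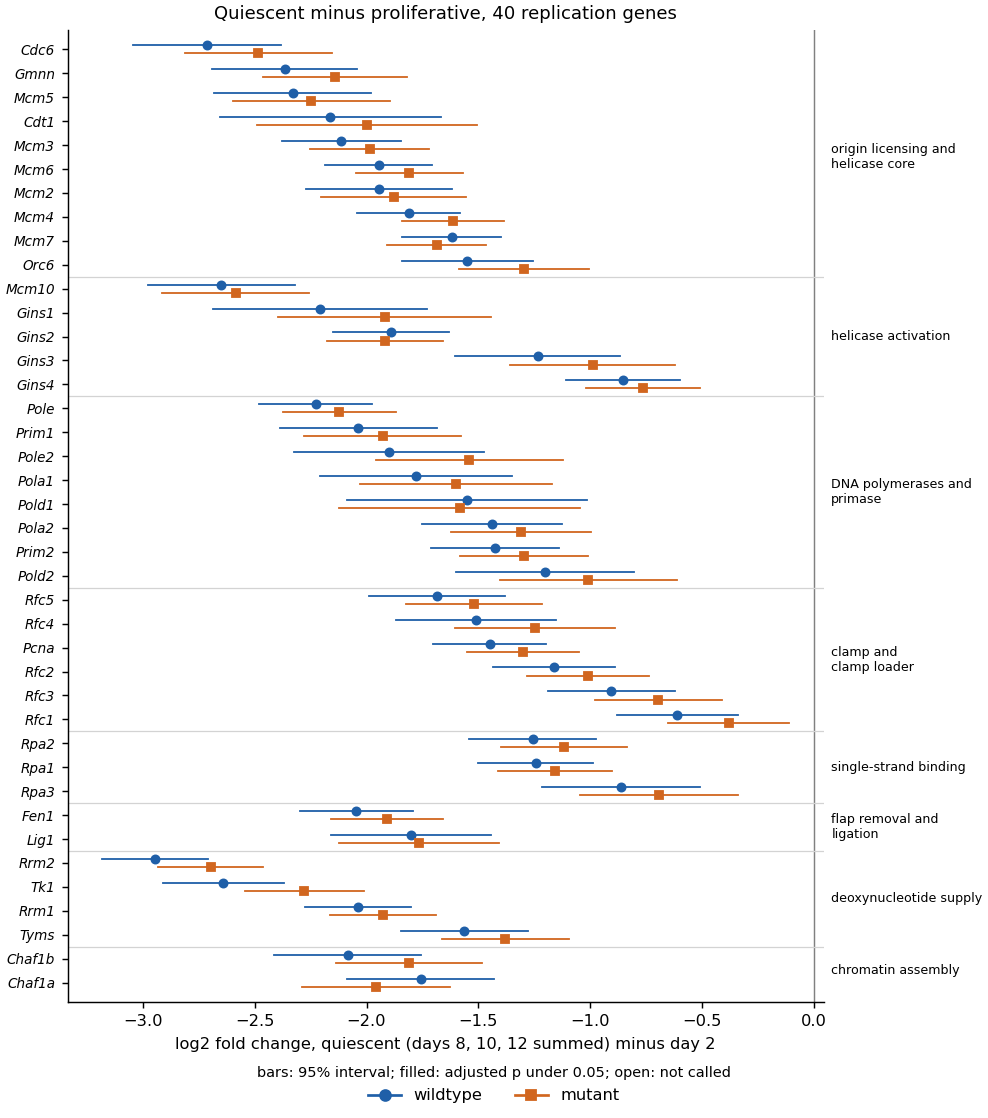
The log2 fold change of each of the 40 members from day 2 to quiescence (x axis), in wildtype (circles) and mutant cells (squares), grouped by role on the y axis. Bars are 95% intervals. Every point lies left of 0, from -2.94 for Rrm2 to -0.38 for Rfc1 in mutant cells.

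Origin licensing genes and the core helicase formed the largest class, with 10 members that all fell in both genotypes (median log2 -2.03 in wildtype and -1.93 in mutant cells). Cdc6, the loader of the helicase, stood in wildtype lines 1 and 2 at 41.9 and 34.2 CPM at day 2, 6.28 and 6.76 at day 8, 7.33 and 5.79 at day 10 and 4.78 and 4.13 at day 12. The mutant Cdc6 levels in lines 1 and 2 were 34.8 and 30.6 CPM at day 2, 6.25 and 6.36 at day 8, 6.45 and 6.89 at day 10 and 3.87 and 3.30 at day 12. For Cdc6, both mutant lines lay below both wildtype lines at day 12, and the genotypes overlapped at days 2, 8 and 10. Such separations of 2 lines from 2 are given here and below as description only. At day 2 both mutant lines lay below both wildtype lines in 11.4% of all genes and above them in 12.4%. The shares of all genes at single quiescent days were not counted. Cdc6 changed by a log2 value of -2.71 (SE 0.15, adjusted p = 1.63e-06) in wildtype and -2.48 (SE 0.15, adjusted p = 3.34e-06) in mutant cells, the largest fall of this class. Its partner Cdt1 changed by -2.16 and -2.00, and Gmnn, the inhibitor of Cdt1, by -2.37 and -2.14 in wildtype and mutant cells.

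Orc6, the smallest subunit of the origin recognition complex, stood in wildtype lines 1 and 2 at 77.5 and 64.9 CPM at day 2, 27.9 and 28.5 at day 8, 23.8 and 24.4 at day 10 and 20.3 and 20.9 at day 12. The mutant Orc6 levels in lines 1 and 2 were 64.6 and 55.8 CPM at day 2, 24.3 and 28.1 at day 8, 24.1 and 26.7 at day 10 and 18.5 and 20.4 at day 12. For Orc6, both mutant lines lay below both wildtype lines at day 2, and the genotypes overlapped at days 8, 10 and 12. Orc6 had the smallest fall of the class, with log2 changes of -1.55 (SE 0.13, adjusted p = 1.27e-05) and -1.30 (SE 0.13, adjusted p = 4.83e-05). The core helicase subunits Mcm2 to Mcm7, which work as a ring with one copy of each, fell by unequal amounts. In wildtype cells the log2 changes were -1.94 for Mcm2, -2.11 for Mcm3, -1.81 for Mcm4, -2.33 for Mcm5, -1.95 for Mcm6 and -1.62 for Mcm7. Mcm5 stood in wildtype lines 1 and 2 at 106 and 122 CPM at day 2, 29.8 and 25.8 at day 8, 28.5 and 21.4 at day 10 and 16.2 and 15.3 at day 12. The mutant Mcm5 levels in lines 1 and 2 were 96.5 and 129.6 CPM at day 2, 26.4 and 26.8 at day 8, 27.5 and 26.7 at day 10 and 13.9 and 12.99 at day 12. For Mcm5, both mutant lines lay below both wildtype lines at day 12, and the genotypes overlapped at days 2, 8 and 10. Mcm3 stood in wildtype lines 1 and 2 at 119.8 and 133 CPM at day 2, 34.7 and 33.6 at day 8, 33.3 and 27.6 at day 10 and 23.8 and 23.2 at day 12. The mutant Mcm3 levels in lines 1 and 2 were 116 and 138 CPM at day 2, 32.1 and 31.95 at day 8, 36.03 and 37.9 at day 10 and 21.9 and 24.7 at day 12. For Mcm3, both mutant lines lay below both wildtype lines at day 8 and above them at day 10, and the genotypes overlapped at days 2 and 12.

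Helicase activation genes (5 members, median -1.89 in wildtype and -1.92 in mutant cells) held some of the largest and some of the smallest falls. Mcm10, which helps the loaded helicase to start unwinding, stood in wildtype lines 1 and 2 at 33.6 and 34.1 CPM at day 2, 6.85 and 5.77 at day 8, 7.51 and 4.61 at day 10 and 3.88 and 4.20 at day 12. The mutant Mcm10 levels in lines 1 and 2 were 32.8 and 33.9 CPM at day 2, 6.60 and 6.40 at day 8, 6.64 and 5.04 at day 10 and 3.35 and 3.39 at day 12. For Mcm10, both mutant lines lay below both wildtype lines at day 12, and the genotypes overlapped at days 2, 8 and 10. The log2 change of Mcm10 was -2.65 (SE 0.15, adjusted p = 1.69e-06) in wildtype and -2.58 (SE 0.15, adjusted p = 3.15e-06) in mutant cells. The subunits of GINS, a complex with one copy of each, spread widely, with wildtype log2 changes of -2.21 for Gins1, -1.89 for Gins2, -1.24 for Gins3 and -0.85 for Gins4. Gins4 stood in wildtype lines 1 and 2 at 30.7 and 28.7 CPM at day 2, 22.04 and 16.1 at day 8, 14.5 and 17.2 at day 10 and 13.5 and 15.04 at day 12. The mutant Gins4 levels in lines 1 and 2 were 29.05 and 30.5 CPM at day 2, 15.7 and 16.8 at day 8, 22.5 and 19.1 at day 10 and 14.5 and 13.4 at day 12. For Gins4, both mutant lines lay above both wildtype lines at day 10, and the genotypes overlapped at days 2, 8 and 12. Its quiescent levels stayed at 55.5% of day 2 at day 8 and 46.96% at day 12 (medians of 4 lines). The log2 changes of Gins4 were -0.85 (SE 0.11, adjusted p = 0.000215) and -0.76 (SE 0.11, adjusted p = 0.000544), and the mutant value did not pass a test against a 1.5-fold change (adjusted p = 0.104).

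The 8 polymerase and primase subunits all fell (median -1.67 in wildtype and -1.56 in mutant cells). Pole, the catalytic subunit of the leading strand polymerase epsilon, stood in wildtype lines 1 and 2 at 64.8 and 73.1 CPM at day 2, 19.6 and 19.1 at day 8, 15.2 and 13.2 at day 10 and 10.7 and 10.98 at day 12. The mutant Pole levels in lines 1 and 2 were 68.9 and 71.5 CPM at day 2, 18.7 and 21.2 at day 8, 17.3 and 14.3 at day 10 and 10.9 and 9.16 at day 12. For Pole, the genotypes overlapped at every day. Day 8 lay near 28.4% of day 2 and day 12 near 15.4% (medians of 4 lines). Pole changed by log2 -2.23 (SE 0.11, adjusted p = 1.39e-06) and -2.12 (SE 0.11, adjusted p = 2.30e-06), and its accessory subunit Pole2 by -1.90 and -1.54. Pold2, an accessory subunit of the lagging strand polymerase delta, stood in wildtype lines 1 and 2 at 31.1 and 33.6 CPM at day 2, 16.1 and 14.9 at day 8, 12.9 and 15.6 at day 10 and 12.6 and 11.9 at day 12. The mutant Pold2 levels in lines 1 and 2 were 24.8 and 37.9 CPM at day 2, 14.9 and 14.6 at day 8, 17.5 and 20.2 at day 10 and 12.3 and 10.6 at day 12. For Pold2, both mutant lines lay above both wildtype lines at day 10, and the genotypes overlapped at days 2, 8 and 12. Pold2 had the smallest fall of the class, -1.20 (SE 0.18, adjusted p = 0.000399) in wildtype and -1.01 (SE 0.18, adjusted p = 0.00140) in mutant cells, while the catalytic subunit Pold1 changed by -1.55 and -1.58. For polymerase alpha and primase the wildtype log2 changes were -1.78 (Pola1, catalytic), -1.44 (Pola2, accessory), -2.04 (Prim1, catalytic primase) and -1.43 (Prim2, large primase subunit).

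The clamp and its loader fell less as a class, with a median of -1.31 in wildtype and -1.13 in mutant cells for 6 members, beside -1.79 and -1.65 over all 40. The difference between classes was not tested. Pcna, the sliding clamp, stood in wildtype lines 1 and 2 at 216 and 180.3 CPM at day 2, 81.6 and 77.04 at day 8, 77.9 and 70.03 at day 10 and 59.8 and 69.9 at day 12. The mutant Pcna levels in lines 1 and 2 were 192 and 182 CPM at day 2, 72.7 and 80.6 at day 8, 80.6 and 84.3 at day 10 and 62.1 and 61.8 at day 12. For Pcna, both mutant lines lay above both wildtype lines at day 10, and the genotypes overlapped at days 2, 8 and 12. Every quiescent library kept at least 27.7% of the day 2 level of its line. Pcna changed by log2 -1.45 (SE 0.11, adjusted p = 8.04e-06) and -1.30 (SE 0.11, adjusted p = 1.99e-05). Rfc5, a small subunit of the clamp loader, stood in wildtype lines 1 and 2 at 28.1 and 32.4 CPM at day 2, 10.3 and 10.4 at day 8, 11.8 and 9.28 at day 10 and 7.22 and 7.79 at day 12. The mutant Rfc5 levels in lines 1 and 2 were 25.01 and 28.99 CPM at day 2, 8.79 and 9.26 at day 8, 10.5 and 11.1 at day 10 and 8.10 and 7.20 at day 12. For Rfc5, both mutant lines lay below both wildtype lines at day 8, and the genotypes overlapped at days 2, 10 and 12. Rfc5 had the largest fall of the class, -1.69 (SE 0.14, adjusted p = 9.63e-06) and -1.52 (SE 0.14, adjusted p = 2.36e-05).

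Rfc1, the large subunit that only the replicative loader uses, stood in wildtype lines 1 and 2 at 87.5 and 83.8 CPM at day 2, 56.2 and 62.9 at day 8, 57.9 and 53.4 at day 10 and 54.6 and 50.8 at day 12. The mutant Rfc1 levels in lines 1 and 2 were 82.4 and 66.1 CPM at day 2, 59.7 and 63.2 at day 8, 51.9 and 52.3 at day 10 and 49.4 and 61.7 at day 12. For Rfc1, both mutant lines lay below both wildtype lines at days 2 and 10, and the genotypes overlapped at days 8 and 12. Mutant line 2 started lowest and kept 95.6% of its day 2 level at day 8 and 93.4% at day 12, the highest shares among all members and lines at those days, whereas the other 3 lines were at 59.98% to 62.4% at day 12. Rfc1 changed by log2 -0.61 (SE 0.12, adjusted p = 0.00231) in wildtype and -0.38 (SE 0.12, adjusted p = 0.0289) in mutant cells, the smallest falls of all 40 members. The wildtype call was lost without wildtype replicate 1, though the value was still -0.60. The mutant value depended on mutant replicate 1, without which it was -0.18 and not called. Without either wildtype line the mutant call was also lost, at a value of -0.40. With the line as a block the mutant value was -0.37 (adjusted p = 0.0514). Rfc1 passed the test against a 1.5-fold change in neither genotype (adjusted p = 0.463 in wildtype). The small subunits, which other loaders share, changed in wildtype by -1.16 (Rfc2), -0.91 (Rfc3), -1.51 (Rfc4) and -1.69 (Rfc5). In mutant cells Rfc3 did not pass the test against a 1.5-fold change.

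The 3 subunits of RPA, the protein that covers unwound DNA in replication and also in repair, had a median of -1.24 in wildtype and -1.12 in mutant cells. Rpa2 stood in wildtype lines 1 and 2 at 39.5 and 38.4 CPM at day 2, 17.9 and 16.9 at day 8, 16.2 and 15.3 at day 10 and 14.8 and 16.4 at day 12. The mutant Rpa2 levels in lines 1 and 2 were 34.99 and 38.1 CPM at day 2, 14.8 and 17.3 at day 8, 16.6 and 21.8 at day 10 and 13.1 and 14.6 at day 12. For Rpa2, both mutant lines lay below both wildtype lines at days 2 and 12 and above them at day 10, and the genotypes overlapped at day 8. Rpa3 stood in wildtype lines 1 and 2 at 33.5 and 27.00 CPM at day 2, 17.2 and 19.4 at day 8, 17.2 and 16.7 at day 10 and 15.3 and 13.8 at day 12. The mutant Rpa3 levels in lines 1 and 2 were 26.2 and 29.1 CPM at day 2, 15.5 and 18.4 at day 8, 16.7 and 20.8 at day 10 and 10.5 and 17.6 at day 12. For Rpa3, the genotypes overlapped at every day. Rpa2 kept 37.6% to 42.7% of the day 2 level of its line at day 12, and Rpa3 40.2% to 60.5%. The log2 changes were -1.26 (SE 0.13, adjusted p = 3.80e-05) and -1.12 (SE 0.13, adjusted p = 0.000101) for Rpa2, and -0.86 (SE 0.16, adjusted p = 0.00146) and -0.69 (SE 0.16, adjusted p = 0.00594) for Rpa3. The wildtype call of Rpa3 was lost without wildtype replicate 1, at a value of -0.71. Rpa3 passed the test against a 1.5-fold change in neither genotype (adjusted p = 0.0657 in wildtype and 0.319 in mutant cells). The largest subunit gene, Rpa1, changed by -1.24 and -1.16.

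The lagging strand enzymes also fell. Fen1, the nuclease that trims flaps, stood in wildtype lines 1 and 2 at 58.8 and 57.04 CPM at day 2, 15.6 and 16.3 at day 8, 14.5 and 13.1 at day 10 and 12.5 and 12.3 at day 12. The mutant Fen1 levels in lines 1 and 2 were 52.9 and 59.9 CPM at day 2, 15.8 and 14.9 at day 8, 16.8 and 17.7 at day 10 and 10.9 and 10.1 at day 12. For Fen1, both mutant lines lay below both wildtype lines at day 12 and above them at day 10, and the genotypes overlapped at days 2 and 8. Lig1, the ligase that seals the fragments, stood in wildtype lines 1 and 2 at 67.7 and 80.4 CPM at day 2, 27.1 and 26.4 at day 8, 19.4 and 20.2 at day 10 and 18.01 and 16.5 at day 12. The mutant Lig1 levels in lines 1 and 2 were 63.5 and 88.6 CPM at day 2, 24.6 and 23.5 at day 8, 23.5 and 25.6 at day 10 and 16.98 and 13.9 at day 12. For Lig1, both mutant lines lay below both wildtype lines at day 8 and above them at day 10, and the genotypes overlapped at days 2 and 12. Fen1 changed by log2 -2.05 (SE 0.11, adjusted p = 1.67e-06) and -1.91 (SE 0.11, adjusted p = 3.29e-06), and Lig1 by -1.80 (SE 0.16, adjusted p = 1.72e-05) and -1.77 (SE 0.16, adjusted p = 2.55e-05). Both subunits of the chromatin assembly factor CAF-1 fell. Chaf1a, its large subunit, stood in wildtype lines 1 and 2 at 67.6 and 89.2 CPM at day 2, 25.6 and 24.9 at day 8, 25.1 and 21.4 at day 10 and 22.2 and 19.98 at day 12. The mutant Chaf1a levels in lines 1 and 2 were 83.6 and 88.8 CPM at day 2, 24.7 and 21.99 at day 8, 25.1 and 22.9 at day 10 and 18.8 and 14.8 at day 12. For Chaf1a, both mutant lines lay below both wildtype lines at days 8 and 12, and the genotypes overlapped at days 2 and 10. Chaf1b, its middle subunit, stood in wildtype lines 1 and 2 at 40.3 and 37.1 CPM at day 2, 11.5 and 9.98 at day 8, 9.41 and 8.08 at day 10 and 8.29 and 7.46 at day 12. The mutant Chaf1b levels in lines 1 and 2 were 33.01 and 39.6 CPM at day 2, 10.9 and 12.1 at day 8, 10.1 and 12.9 at day 10 and 6.06 and 6.89 at day 12. For Chaf1b, both mutant lines lay below both wildtype lines at day 12 and above them at day 10, and the genotypes overlapped at days 2 and 8. Chaf1a changed by -1.76 (SE 0.15, adjusted p = 1.23e-05) and -1.96 (SE 0.15, adjusted p = 9.62e-06), and Chaf1b by -2.08 (SE 0.15, adjusted p = 4.79e-06) and -1.81 (SE 0.15, adjusted p = 1.40e-05).

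Deoxynucleotide supply held the largest fall of all members. Rrm2, the small subunit of ribonucleotide reductase that is made in S phase, stood in wildtype lines 1 and 2 at 318 and 305 CPM at day 2, 53.8 and 52.4 at day 8, 42.4 and 39.3 at day 10 and 28.3 and 27.9 at day 12. The mutant Rrm2 levels in lines 1 and 2 were 263 and 279 CPM at day 2, 46.1 and 48.7 at day 8, 40.1 and 49.9 at day 10 and 27.8 and 25.5 at day 12. For Rrm2, both mutant lines lay below both wildtype lines at days 2, 8 and 12, and the genotypes overlapped at day 10. The quiescent levels were 8.89% to 10.6% of day 2 at day 12. On the log2 scale Rrm2 changed by -2.94 (SE 0.11, adjusted p = 3.16e-07) in wildtype cells. The mutant change of Rrm2 was -2.70 (SE 0.10, adjusted p = 7.83e-07). Rrm1, the large subunit, stood in wildtype lines 1 and 2 at 401 and 372 CPM at day 2, 111 and 114 at day 8, 104 and 89.3 at day 10 and 77.8 and 71.4 at day 12. The mutant Rrm1 levels in lines 1 and 2 were 362 and 351 CPM at day 2, 117 and 105 at day 8, 94.9 and 90.1 at day 10 and 67.4 and 62.8 at day 12. For Rrm1, both mutant lines lay below both wildtype lines at days 2 and 12, and the genotypes overlapped at days 8 and 10. Its log2 changes were -2.04 (SE 0.11, adjusted p = 1.47e-06) and -1.93 (SE 0.11, adjusted p = 2.49e-06), smaller than those of its partner.

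Tk1, the cytosolic thymidine kinase of the salvage route, stood in wildtype lines 1 and 2 at 99.6 and 93.2 CPM at day 2, 19.9 and 21.9 at day 8, 14.3 and 15.4 at day 10 and 10.7 and 10.8 at day 12. The mutant Tk1 levels in lines 1 and 2 were 81.7 and 95.2 CPM at day 2, 18.3 and 21.8 at day 8, 20.8 and 21.2 at day 10 and 9.92 and 10.9 at day 12. For Tk1, both mutant lines lay above both wildtype lines at day 10, and the genotypes overlapped at days 2, 8 and 12. In the mutant lines day 10 stayed near day 8, and in the wildtype lines it was lower than day 8. Tk1 changed by -2.64 (SE 0.12, adjusted p = 8.35e-07) in wildtype and -2.28 (SE 0.12, adjusted p = 2.29e-06) in mutant cells. Tyms, thymidylate synthase, stood in wildtype lines 1 and 2 at 61.1 and 52.02 CPM at day 2, 21.6 and 23.7 at day 8, 21.1 and 17.96 at day 10 and 16.5 and 14.3 at day 12. The mutant Tyms levels in lines 1 and 2 were 48.8 and 56.2 CPM at day 2, 19.9 and 24.05 at day 8, 21.2 and 22.3 at day 10 and 15.3 and 13.3 at day 12. For Tyms, both mutant lines lay above both wildtype lines at day 10, and the genotypes overlapped at days 2, 8 and 12. Tyms had the smallest fall of the class, -1.56 (SE 0.13, adjusted p = 1.03e-05) and -1.38 (SE 0.13, adjusted p = 2.83e-05). The paralogs that serve cells outside S phase were compared whatever their values. Rrm2b, the alternative small subunit of ribonucleotide reductase, was at 21.6 ± 3.99 CPM at day 2 and 22.9 ± 1.33 CPM at quiescence in wildtype (mean ± SD, n = 2 lines), with a log2 change of 0.073 (95% interval -0.36 to 0.51, adjusted p = 0.785). That interval does not reach the change of Rrm2. Tk2, the mitochondrial thymidine kinase, had log2 changes of 0.49 (SE 0.19, adjusted p = 0.0577) in wildtype, which did not pass, and 0.53 (SE 0.19, adjusted p = 0.0476) in mutant cells, which did.

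Since the members fell together, their promoters were examined for the binding letters of factors named for this gene class. Promoter sequences came from RefSeq (GRCm38.p6, another build than the mm9 used for counting), covering 250 bases before to 50 after the start, and 32 of the 40 members had an entry. The E2F motif was searched as TTTCCCGC, TTTCGCGC, TTTGCCGC or TTTGGCGC on both strands, and the CCAAT box as CCAAT on both strands. Matches to different E2F letters may overlap each other, and both motifs were chosen after the members' falls were known. An E2F match was found for 12 of the 32 members (37.5%), beside 2.60% of all 27025 genes with a promoter entry and 4.35% of the 12256 that were also tested for expression. A CCAAT match was found for 20 members (62.5%), beside 41.1% of all genes and 42.4% of those tested. The median wildtype log2 change was -1.85 (range -2.71 to -0.91) for the 12 members with an E2F match. It was -1.62 (range -2.94 to -0.61) for the 20 without one. The 8 members without a promoter entry had a median of -1.85 (range -2.37 to -0.85). Differences between these sets were not tested. A match is a description of letters, and no match says only that these letters are not in the window.

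The 160 bases before the start are shown for 4 members with an E2F match there (Cdc6, Mcm5, Mcm6 and Pola1) and for the members with the largest (Rrm2) and the smallest (Rfc1) fall, 5′ to 3′ on the gene's strand. Gins3 and Rfc3, which fell less than these 4, also hold an E2F match in that stretch (first base at -41 and -10) and are not shown. Capitals mark E2F and CCAAT matches in either orientation.
Cdc6 (GRCm38.p6 chr11:98907991-98908150, plus strand): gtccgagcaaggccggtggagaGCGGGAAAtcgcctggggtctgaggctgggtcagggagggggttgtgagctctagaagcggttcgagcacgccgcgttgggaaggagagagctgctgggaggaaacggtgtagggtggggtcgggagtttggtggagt
Mcm5 (GRCm38.p6 chr8:75109349-75109508, plus strand): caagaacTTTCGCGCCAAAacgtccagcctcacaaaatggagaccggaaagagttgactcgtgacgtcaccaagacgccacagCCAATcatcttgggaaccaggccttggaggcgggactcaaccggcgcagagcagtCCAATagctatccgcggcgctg
Mcm6 (GRCm38.p6 chr1:128359706-128359865, minus strand): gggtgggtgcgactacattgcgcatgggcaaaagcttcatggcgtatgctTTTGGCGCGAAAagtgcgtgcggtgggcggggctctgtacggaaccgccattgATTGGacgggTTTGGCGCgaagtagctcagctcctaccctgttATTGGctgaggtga
Pola1 (GRCm38.p6 chrX:93632156-93632315, minus strand): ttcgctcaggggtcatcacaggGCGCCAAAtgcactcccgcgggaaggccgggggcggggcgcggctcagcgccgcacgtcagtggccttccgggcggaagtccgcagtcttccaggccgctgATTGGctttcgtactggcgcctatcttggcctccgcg
Rrm2 (GRCm38.p6 chr12:24708094-24708253, plus strand): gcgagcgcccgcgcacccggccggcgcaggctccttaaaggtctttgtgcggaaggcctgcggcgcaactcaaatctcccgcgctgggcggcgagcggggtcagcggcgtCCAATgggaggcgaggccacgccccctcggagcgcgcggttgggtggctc
Rfc1 (GRCm38.p6 chr5:65335640-65335799, minus strand): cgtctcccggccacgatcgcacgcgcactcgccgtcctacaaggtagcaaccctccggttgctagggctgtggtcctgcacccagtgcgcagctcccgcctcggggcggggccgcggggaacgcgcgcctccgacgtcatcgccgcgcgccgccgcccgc
Mcm5 and Mcm6 each hold a pair of overlapping E2F matches facing opposite ways, and Mcm6 holds another one nearer to the start. Cdc6 and Pola1 hold one each. Rrm2 holds no match to these E2F letters and 1 CCAAT box, and Rfc1 holds neither motif in this stretch. In the whole window searched, Rfc1 has CCAAT matches with their first base at -166 and 33, so it is among the 20 members with a CCAAT match.

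Levels of different subunits were compared per length, as CPM per kilobase of the longest protein-coding transcript in GENCODE M21, since the annotation used for counting was not given. On this scale the MCM subunits lay within 1.496-fold of each other at day 2 in wildtype cells, from 31.6 for Mcm2 to 47.2 for Mcm7. At quiescence the range was 2.34-fold, from 6.63 for Mcm5 to 15.5 for Mcm7. Mutant cells gave 1.58-fold and 2.29-fold. Among the clamp loader subunits in wildtype cells, the range was 2.00-fold at day 2 (Rfc2 lowest, Rfc4 highest) and 3.51-fold at quiescence (Rfc5 lowest, Rfc1 highest). The order depends on the length taken, which was 4995 bases for Rfc2 and 1279 for Rfc4. In CPM Rfc2 stood at 51.7 and 51.9 and Rfc4 at 29.8 and 23.2 in wildtype lines 1 and 2 at day 2. Which transcripts the cells used was not tested. The highest levels per length in proliferating wildtype cells were those of Rrm2 (139.5), Pcna (128.2) and Rrm1 (95.05), and the lowest that of Gins3 (4.51). In quiescent wildtype cells Pcna (47.3), Rpa3 (24.5) and Rrm1 (23.4) led, Rrm2 stood at 18.3, and Mcm10 (1.10) was lowest. These are means of 2 lines, and the differences in range were not tested.

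**Figure D2:**
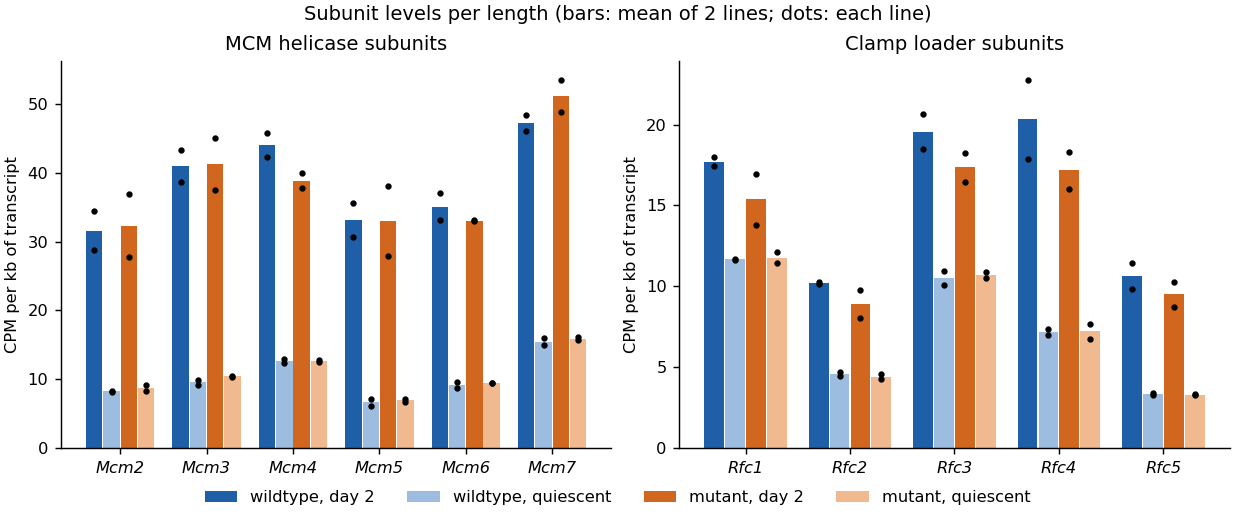
Level per kilobase of transcript (y axis, CPM per kb) of the MCM helicase and clamp loader subunits by genotype and state, with bars for the mean of 2 lines and dots for each line. Mcm7 is the highest MCM subunit in every group, and Rfc1 is the highest clamp loader subunit at quiescence (11.7 in wildtype and 11.8 in mutant cells).

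Other genes of the pathway were counted from lists written by name. Over all genes tested, 23.7% were called lower and 23.9% higher in wildtype, and 21.0% and 21.1% in mutant cells. Of the other replication factors, 32 of 39 fell and 2 rose in wildtype (median log2 -1.28), and 30 fell and 1 rose in mutant cells. The smallest p values among those that fell belonged to Pclaf, a PCNA-binding protein listed as 2810417H13Rik in the table (log2 -2.41, SE 0.11, adjusted p = 7.85e-07), Cdc45, the helicase partner (-2.28), the exonuclease Exo1 (-2.53) and Dbf4, the activator of the origin kinase Cdc7 (-2.22). Pold4, the smallest subunit of polymerase delta, rose (log2 0.61, SE 0.11, adjusted p = 0.00135), as did the topoisomerase Top2b in wildtype (0.39), which did not pass in mutant cells (0.35, adjusted p = 0.0551). Pold4 thus went the other way from the polymerase delta members Pold1 and Pold2 in wildtype cells. Other nucleotide synthesis genes fell for 23 of 27 and rose for 1 in wildtype (median -1.17). Umps, Atic and Ppat of pyrimidine and purine synthesis changed by log2 -1.68, -1.45 and -1.53, while Ctps2, a CTP synthase, rose in wildtype (0.39) and did not pass in mutant cells (0.24, adjusted p = 0.168).

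Genes of nucleotide supply and turnover outside S phase were mixed, with 7 of 13 lower and 2 higher in wildtype (median -0.53). Deoxycytidine kinase, Dck, and uridine phosphorylase, Upp1, fell (log2 -1.65 and -3.26), as did the deoxycytidine nucleotide enzymes Dctd and Dctpp1 (-1.26 and -1.501). The mitochondrial deoxyguanosine kinase Dguok (0.86) and the mitochondrial nucleotidase Nt5m (0.40) rose in wildtype. In mutant cells Dguok passed (0.88) and Nt5m did not (0.26, adjusted p = 0.1701). Chromatin factors that act at the fork fell for 14 of 16 genes (median -1.09), among them the histone chaperone Asf1b (-2.58), the remodeller Hells (-2.20), Uhrf1, which brings maintenance methylation to new DNA (-2.31), and the histone acetyltransferase Hat1 (-1.89). Of the regulators of the step from G1 to S phase, 15 of 21 fell and 5 rose. The repressor E2f7 (-2.86), the cyclins Ccna2 (-2.12) and Ccne1 (-1.60) and the inhibitor of the anaphase-promoting complex Fbxo5 (-2.24) fell. The kinase inhibitors Cdkn1c (1.39) and Cdkn1b (0.55) and the pocket proteins Rbl2 (0.78) and Rb1 (0.54), which hold E2F back, rose. Mitotic genes fell for 25 of 25 genes with a median of -2.21, for example Aurka (-2.69), Birc5 (-2.74), Tpx2 (-2.25) and Kif2c (-2.39). Beside this, 23.7% of all tested genes fell and 23.9% rose in wildtype.

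The members were then followed within quiescence, to ask whether the fall was complete at day 8. The summed level of the 40 members was 3312 and 3219.8 CPM at day 2 in wildtype lines 1 and 2 and 2979.8 and 3192 CPM in mutant lines 1 and 2. At day 8 the lines stood at 32.7%, 34.3%, 34.8% and 33.7% of these levels. At day 10 the values were 30.3%, 28.6%, 34.03% and 33.4%, and at day 12 24.2%, 25.1%, 24.7% and 24.1%. Most of the fall was thus present at day 8, the wildtype lines were lower at day 10 and the mutant lines were little changed there, and all 4 lines were lower again at day 12. For the 25 mitotic genes the shares of day 2 were 27.4% to 32.3% at day 8 and 13.8% to 15.8% at day 12.

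**Figure D3:**
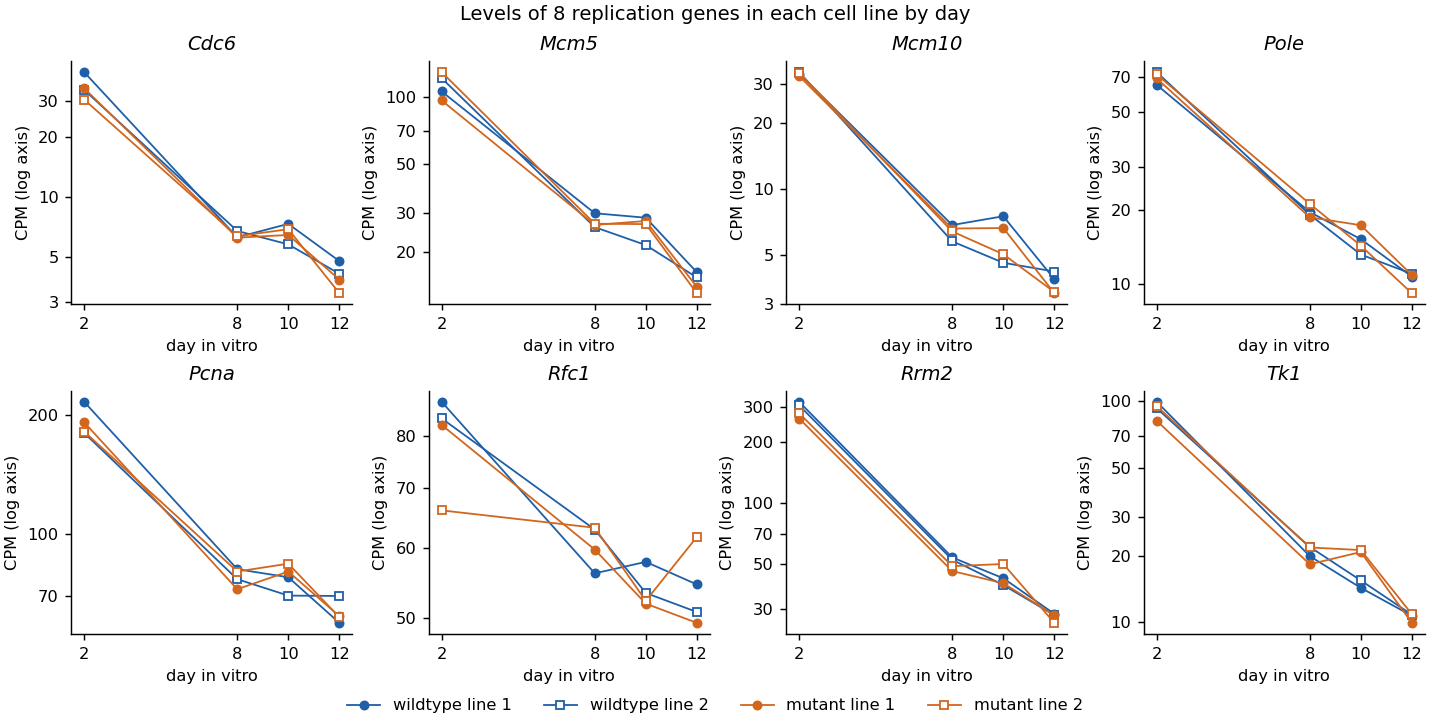
Level in CPM (y axis, log scale, a different range in each panel) of 8 members against day in vitro (x axis), with a line for each of the 4 cell lines. In every panel each line is lower at day 8 than at day 2 and lower again at day 12 than at day 8, and at day 12 Rrm2 lies at 25.5 to 28.3 CPM.

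Days were compared over all 16 libraries in 8 groups, as the mean over genotypes, treating the harvests of one line as if they were independent. Between day 8 and day 10 no member passed (0 of 40 in edgeR; 7 had an unadjusted p under 0.05, as had 10.4% of all genes). At the adjusted threshold 0.0648% of all genes passed (0.0583% lower, 0.00648% higher). DESeq2 called 1 member there, Pole, beside 261 of 23100 genes. Between day 10 and day 12, 10 members fell (median log2 of the 40 -0.41), beside 0.415% of all genes (0.389% lower, 0.0259% higher). These 10 were Mcm3, Mcm5, Mcm6, Mcm7, Cdc6, Pole, Fen1, Rrm1, Rrm2 and Tk1. This count changed with the tool, with 23 members in DESeq2, beside 407 of 23100 genes. It also changed with the line left out, and so did the count over all genes. In the fits without a line, 38 to 40 members were lower at day 12. From day 8 to day 12, 22 of 40 members fell and none rose, beside 2.00% and 1.12% of all genes (3.12% in all). The median log2 change of the 40 was -0.46, against -0.0029 over all genes. In 31 of 40 members every day 12 library lay below every day 8 library, which held for 7.03% of all genes. Fewer members were called when a line was left out, as were fewer genes over all, and all 40 members were still lower at day 12 in each of these fits.

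By role, the late fall was called in 10 of 10 licensing and core helicase genes, 2 of 5 helicase activation genes, 3 of 8 polymerase and primase genes, 2 of 2 lagging strand enzymes, 4 of 4 deoxynucleotide genes and 1 of 2 chromatin assembly genes. It was called in none of the 6 clamp and loader genes or the 3 RPA genes in edgeR with TMM. Of these, DESeq2 called Pcna and Rfc2, and edgeR with library totals alone called Pcna (-0.31, adjusted p = 0.0443). Differences between roles were not tested, and 2.00% of all genes were called lower at day 12 than at day 8. The smallest p values among members for day 12 against day 8 were those of Rrm2, Tk1, Pole and Rrm1. Their log2 changes were -0.86 (SE 0.080, adjusted p = 3.98e-05) for Rrm2, -0.94 (SE 0.087, adjusted p = 3.98e-05) for Tk1, -0.91 (SE 0.10, adjusted p = 0.000111) for Pole and -0.67 (SE 0.075, adjusted p = 0.000204) for Rrm1. Among licensing genes the largest late change was that of Mcm5, -0.89 (SE 0.11, adjusted p = 0.000357), and the smallest that of Mcm4, -0.36 (SE 0.081, adjusted p = 0.0286). The calls of 14 members (Mcm2, Mcm3, Mcm4, Cdc6, Cdt1, Orc6, Mcm10, Gins2, Prim1, Pole2, Fen1, Lig1, Tyms and Chaf1b) were lost without wildtype replicate 1 and also without wildtype replicate 2. Mcm4, Cdt1 and Mcm10 were lost whichever line was left out, while Rrm1, Rrm2, Tk1, Pole, Mcm5 and Mcm6 passed whichever line was left out. Gins3, a helicase activation gene, did not pass (log2 -0.10, 95% interval -0.40 to 0.20), and nor did Rfc1 (-0.15, -0.35 to 0.049) or Pcna (-0.29, -0.47 to -0.11). Of the lists beside the members, the late fall was called in 25 of 25 mitotic genes (median -1.03), 11 of 39 other replication factors, 6 of 16 chromatin factors, 6 of 21 regulators of the step into S phase 3 of 27 other nucleotide synthesis genes and 1 of 13 genes of nucleotide supply outside S phase. Over the same days the summed macrophage and blood markers went from 26.8 to 75.6 CPM in wildtype line 1, from 113 to 254 in wildtype line 2, from 178 to 453 in mutant line 1 and from 11.01 to 33.4 in mutant line 2. Their part in the late fall was not tested. The markers rose from day 8 to day 12 in every line, so their rise and the day cannot be told apart.

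**Figure D4:**
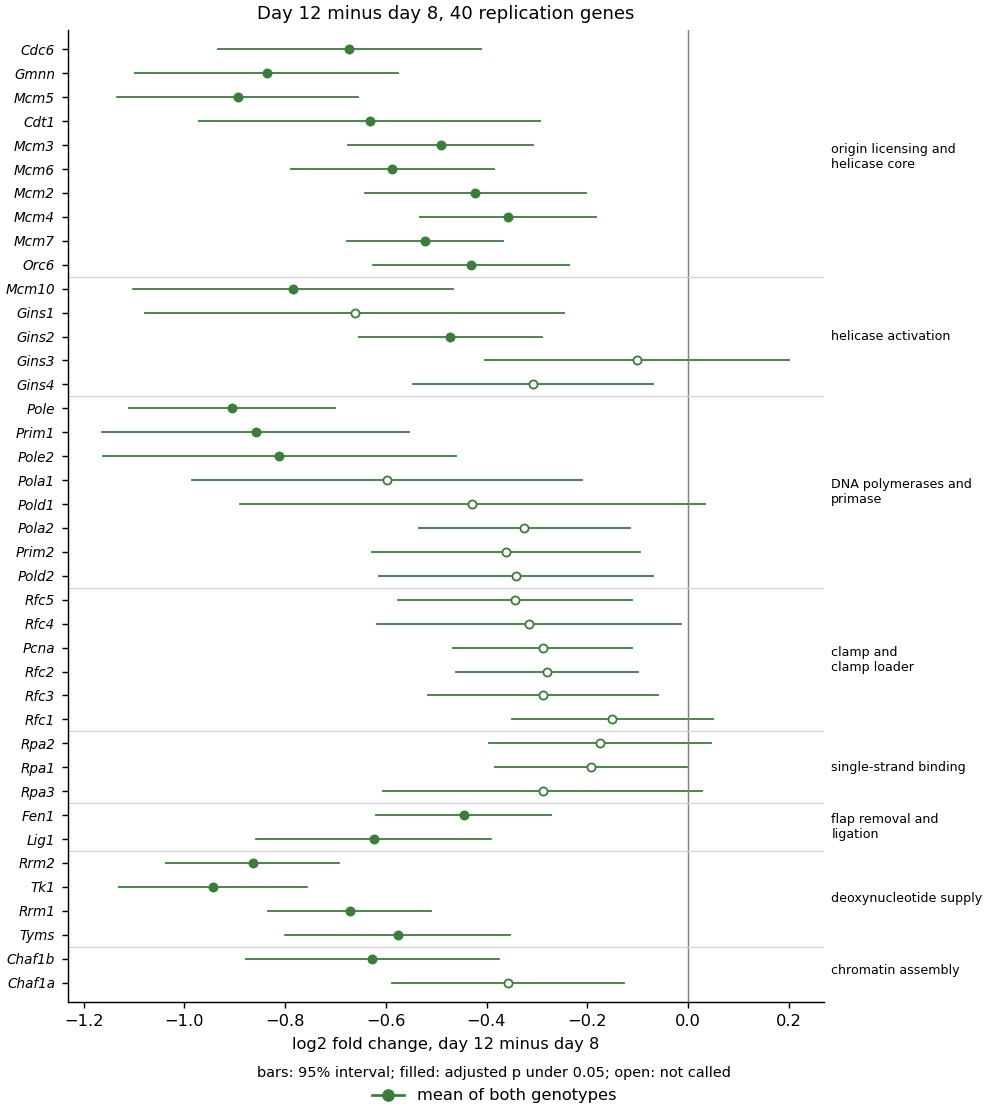
The log2 fold change from day 8 to day 12 (x axis, mean of both genotypes) of each member, grouped by role on the y axis, with 95% intervals; filled points passed the test. All 40 points lie left of 0, from -0.94 for Tk1 to -0.10 for Gins3, and the 9 clamp, loader and RPA genes are open in this TMM fit.

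The comparison of genotypes asked whether the replication genes differed between wildtype and Zac1 mutant cells, in each state. No member passed in either state (0 of 40 in each by edgeR; 0 members in proliferation and 0 at quiescence had an unadjusted p under 0.05, beside 2.87% and 0.483% of all genes), and DESeq2 also called 0. Over all genes 0.00635% were called in each state, which is Plagl1 itself. In proliferation 30 of 40 members were lower in mutant cells (median log2 -0.10, range -0.31 for Gins1 to 0.14 for Chaf1a), beside 49.1% of all genes. Both mutant lines lay below both wildtype lines in 13 members and above them in 1, which held for 11.4% and 12.4% of all genes. At day 2, Rrm2 was at 318 and 305 CPM in wildtype and 263 and 279 CPM in mutant lines, a log2 difference of -0.20 (95% interval -0.42 to 0.019). The groups did not overlap for Rrm2, and yet the interval includes 0. Orc6 differed by -0.24 (-0.53 to 0.046) and Mcm2 by 0.030 (-0.29 to 0.35). Mutant line 1 had the smallest summed level of the members at day 2, 2979.8 CPM, while mutant line 2 with 3192 CPM was close to wildtype line 2 with 3219.8 CPM. The day 2 library of mutant line 1 was also the shallowest of the 16.

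At quiescence 33 of 40 members were higher in mutant cells, by a median log2 of 0.044 (range -0.079 for Cdt1 to 0.24 for Tk1). Over all genes the median was 0.013, and 45.2% were lower in mutant cells. The split of the members depended on the scaling and the days. With library totals alone 20 were higher and 20 lower, 21 were higher and 19 lower when day 12 was left out, and 18 were higher and 22 lower when day 10 was left out. Both mutant lines lay above both wildtype lines in 10 members and below them in 1, beside 11.6% and 11.2% of all genes. The 95% intervals of the members reached at most -0.56 and 0.57. The direction was not the same on each day. At day 8, 29 members were lower in mutant cells (median -0.053), at day 10, 33 were higher (median 0.12), and at day 12, 37 were lower (median -0.11). None passed on any day in edgeR or DESeq2, with 1, 6 and 1 members below an unadjusted p of 0.05 on days 8, 10 and 12. At that unadjusted threshold stood 1.79%, 9.76% and 1.47% of all genes, and 0.00648% passed the adjusted one on each day. Tk1 at day 10 stood at 14.3 and 15.4 CPM in wildtype and 20.8 and 21.2 CPM in mutant lines, the largest member difference of that day. Its log2 value was 0.50 (SE 0.12, adjusted p = 0.475). At day 12 Tk1 stood at 10.7 and 10.8 CPM in wildtype and 9.92 and 10.9 CPM in mutant lines. The day 10 difference of Tk1 was thus not seen at day 12, where the lines overlapped.

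**Figure D5:**
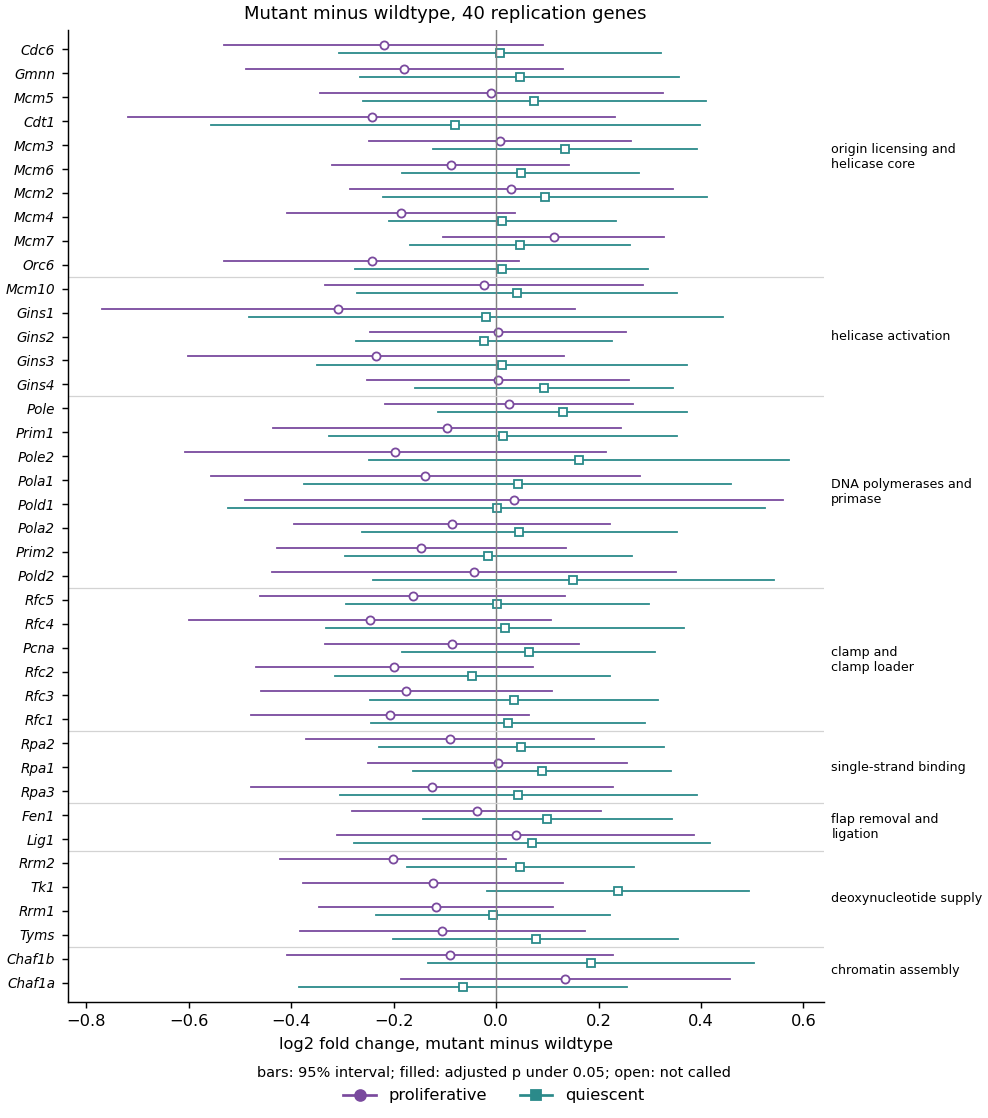
The log2 difference of mutant minus wildtype (x axis) for each member in proliferating cells (circles) and at quiescence (squares), with 95% intervals, grouped by role on the y axis. All points are open because none passed, and they lie between -0.31 and 0.24.

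Whether the fall itself differed between genotypes was tested as an interaction, for which no member passed (0 of 40 by edgeR; 1 had an unadjusted p under 0.05, as had 1.68% of all genes, beside 0.00% of all genes called; DESeq2 also 0). The fall was smaller in mutant cells for 36 of 40 members, by a median log2 of 0.15, beside 0.012 over all genes. Of all genes, 48.0% had an interaction value below 0. The members were measured in the same libraries, so their directions are not independent of each other. The majority of 36 members turned with day 12 alone as quiescent, where 17 members had the smaller fall in mutant cells and 23 the larger. It was 25 members with day 8 alone and 27 without mutant replicate 1. Tk1 had the largest difference, with falls of -2.64 in wildtype and -2.28 in mutant cells (difference 0.36, 95% interval 0.00078 to 0.72, adjusted p = 1.00). For Rrm2 the difference was 0.25 (-0.063 to 0.56), for Cdc6 0.23 (-0.22 to 0.67) and for Mcm5 0.084 (-0.39 to 0.56). Values anywhere inside these intervals remain possible with 2 lines per genotype. The intervals are not adjusted for the number of genes tested, and the smallest difference that could be detected was not computed.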

How the data were processed

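RNA was sequenced from 16 libraries of 4 lines, and a table of raw counts of reads per gene was deposited by the authors. Per the labels' protocols the libraries were stranded, and the authors worked with build mm9, HTSeq 0.6.1p1, TopHat2 2.1.1, bcl2fastq 2.18 and Bowtie2 2.2.9, per the submitters' processing notes. Which annotation and strand setting the counting used is not given in the sources used here. Members with exons that overlap another gene in GENCODE M21 (Mcm7, Orc6, Gins2, Pole, Pole2, Rfc2, Rfc4, Rfc5, Rpa1, Fen1, Lig1, Tk1 and Chaf1a) and those with annotated pseudogenes (Pcna, Tyms) are therefore less certain. Groups and line numbers came from the labels. Total counts were 28079241 to 61039793, and 3 counts correspond to 0.0491 to 0.107 CPM.

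The quiescent days of a line were summed, and edgeR 4.0.16 (R 4.3.3, quasi-likelihood test, TMM, filterByExpr) was fitted to 8 summed libraries (15740 genes, 4 residual degrees of freedom) and, for days, to 16 libraries (15439 genes, 8 residual degrees of freedom), with no term for the line. SE is the absolute log2 change over the square root of F, and adjusted p is by Benjamini-Hochberg over all genes tested. An exact permutation of 2 lines against 2 cannot go below 0.333, so a call depends on edgeR's estimate of spread, which borrows from other genes. Harvests of one line share that line, so the numbers pair states and days, and the deviations of same-line libraries from group means correlated at 0.166 to 0.504. Across genotypes, equal numbers correlated at -0.221 to 0.0830 and were not taken as pairs. The fits were tested on simulated counts, drawn independently for each library with no effect of the line. That test therefore does not cover the sharing of a line between days. Alternatives were RLE size factors, library totals, DESeq2 1.42.0, other count filters, each line or quiescent day left out, a single quiescent day, a block and a test against a 1.5-fold change. The members and lists were chosen with earlier results of these data known. Values by library are given for the largest and smallest fall in each role class, Pcna, Rrm1, Rrm2, and the members with the smallest p in day comparisons. Other list genes named are up to 4 per direction with the smallest p. A gene that this rule also names is not reported here. Of the list names, And1 and Paf were not matched.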

Additional observations from a re-analysis of the deposited data

How the results depend on the processing

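The number of members called in the state comparisons was 36 to 40 under every alternative run, and all 40 stayed lower at quiescence in each. It was 0 in the genotype comparisons and the interaction under all of them. With the line as a block, 40 and 39 members were called for the states in wildtype and mutant cells, 14 for day 12 against day 10 and 23 for day 12 against day 8. With the replicate number as a block 0 were called between genotypes, and apart from Rfc1 in mutant cells, which was lost, blocking ended no member's call. Over all genes the block moved day 12 against day 8 from 482.0 to 943.0 calls. Counts of members that moved by over 1.5 times were confined to the quiescent days. Leaving out a line gave 0 to 14 members for day 12 against day 10 and 6 to 20 for day 12 against day 8. DESeq2 gave 1 for day 10 against day 8 and 23 for day 12 against day 10. Fits without a line hold fewer samples, and in them 1 sample stands for a group and is assumed to vary like the others. Of single values, Tk1 at quiescence (mutant minus wildtype, 0.24) was -0.070 with day 8 alone and -0.044 with day 12 alone, and Chaf1b (0.19) was -0.28 with day 12 alone, and the cause was not tested. Of the other values recomputed for named members, 980 kept direction and call, 35 lost the call and 2 gained one. Library totals alone moved the median of all genes at quiescence in wildtype from 0.051 to 0.15, with no change in the members called.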
